A study of Mus musculus with 6 samples.

Results

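Expression of 9 genes of interferon signalling was followed in control and CNOT3-depleted (CNOT3KD) mouse embryonic fibroblasts (MEFs), before and during a block of transcription. The genes were the RNA sensors Ifih1, Dhx58 and Eif2ak2, the receptor chain gene Ifnar1, the signal transducer gene Stat2 and the interferon regulatory factor genes Irf1, Irf3, Irf7 and Irf9. All probe sets that the platform annotation pairs with exactly 1 of these symbols were taken, which gave 18 of 45037 probe sets and 9 of 18193 named genes. Control MEFs were primary fibroblasts with floxed CNOT3 alleles that had received a control retrovirus, although the labels call their genotype wild type. CNOT3KD MEFs had received a retrovirus for Cre recombinase, and both cultures were selected in puromycin. Since only 1 culture received Cre, loss of CNOT3 and exposure to Cre cannot be told apart. Each culture was sampled without treatment (0 h) and after 6 h and 12 h with actinomycin D (Act. D), an inhibitor of transcription, with 1 GeneChip array for each of the 6 conditions. No difference therefore has an error, a replicate check or a p-value.

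Cells detect viral RNA with the helicases MDA5 and RIG-I, whose signal activates IRF3 and IRF7 and thereby the type I interferon genes. The helicase LGP2 modulates that signalling. Secreted interferon binds a receptor of the IFNAR1 and IFNAR2 chains, and STAT2 and IRF9 then form part of the factor ISGF3, which switches on antiviral genes. Many components of the pathway, among them Irf1, Irf7, Irf9, Stat2, Ifih1, Dhx58 and Eif2ak2, are themselves induced by interferon. Irf3 and Ifnar1 are generally regarded as constitutive. CNOT3 is a subunit of the CCR4-NOT complex, which shortens poly(A) tails and so starts the decay of many mRNAs.

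The promoters are shown because ISGF3, the IRFs and STAT dimers recognize known short motifs. The core of the interferon-stimulated response element (ISRE) was searched as GAAANNGAAA and the gamma-activated site (GAS) as TTCNNNGAA, on both strands, in the 250 bases before and the 50 bases from each RefSeq transcription start of GRCm38.p6. Among 32851 promoters in all, 3.44% held the ISRE core and 8.30% the GAS. Promoters of 8 of the 9 genes matched by symbol, and Dhx58 was not analysed here. Each window below has 30 bases and is written along the strand of its gene, with the match in capitals.
Stat2: cgcaccctggTTTCAGTTTCctttccctag
Ifih1: gagaagagaatcGAAACAGAAAccgatctg
Eif2ak2, ISRE core: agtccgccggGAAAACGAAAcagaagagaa
Eif2ak2, GAS: ctgcagagctTTCCCAGAAtggaagccagg
Irf1: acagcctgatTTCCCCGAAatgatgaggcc
Ifnar1: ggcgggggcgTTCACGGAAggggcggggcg

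The ISRE core thus matched in Stat2 (chr10:128270266-128270295, plus strand, 222 bases before the start, on the opposite strand), Ifih1 (chr2:62646206-62646235, minus strand, 32 bases after the start) and Eif2ak2 (chr17:78882535-78882564, minus strand, 18 bases after the start). The GAS matched in Irf1 (chr11:53769914-53769943, plus strand, 90 bases before the start), Ifnar1 (chr16:91485200-91485229, plus strand, 5 bases before the start) and Eif2ak2 (chr17:78882731-78882760, minus strand, 178 bases before the start). Neither motif matched in these windows of Irf3, Irf7 and Irf9. No ISRE match overlapped a GAS match in these genes. A match is a stretch of letters and not a measured binding site.

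The deposited values are MAS5 signals on a linear scale, and the trimmed mean was between 494 and 497 in every array. A percentage of signal left after Act. D is therefore relative to the mRNA that remained and can exceed 100%. Signals under the 25th percentile of their array, which lay between 13.6 and 19.8, were taken as near background, and a ratio against such a signal is given as a bound. Cnot3 itself had 0.549, 0.667 and 0.419 times the control signal at 0, 6 and 12 h at one probe set and 1.11, 0.451 and 0.331 times at the other. Whether these lie in the deleted part was not analysed here. Fibroblast marker genes were bright in all arrays, with 12 of 12 above background. The summed signal of 13 macrophage and leukocyte markers was 2792 in control and 4015 in CNOT3KD MEFs at 0 h, 4891 and 4609 at 6 h, and 5655 and 5577 at 12 h. For 8 epithelial markers it was 876 and 1723 at 0 h, 935 and 2189 at 6 h, and 753 and 2033 at 12 h. These 8 did not move together. At 0 h 5 were more than 1.5-fold higher in CNOT3KD MEFs, 1 was lower and 2 were neither. Of the 5, Cdh1 and Krt14 had a control signal near background. Krt18 had 419 and 862 and Dsp 96.2 and 443, whereas Epcam had 145 and 154 and Cldn4 79.5 and 10.4. In each list, 3 markers were near background in at least 1 array, among them Itgam and Aif1, and Cdh1, while Lyz2, Csf1r and Krt18 were not. No marker was listed at 0. The part of other cell types in the results below was not tested, and in these bulk samples fewer cells of a type and less RNA per cell cannot be told apart.

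Before Act. D, 4 of the 9 genes were more than 1.5-fold higher in CNOT3KD than in control MEFs, namely Ifih1, Irf7, Irf9 and Stat2. The same 4 genes passed 2-fold. None was more than 1.5-fold lower. Over all 18193 named genes, 19.5% were more than 1.5-fold higher and 15.7% lower. Of the 8 members whose 0 h signal reached the median, 4 were higher, against 12.4% of all 11062 genes at that level. The members were chosen with earlier results of these data known, so the shares in this paragraph are no test of an excess. Counted by probe set, 7 of 18 were more than 1.5-fold higher and 0 lower, against 18.6% and 22.1% of all probe sets, and 1 of the 7 was near background in both 0 h arrays. The median log2 difference was 0.34 over the 9 genes, 0.06 over all named genes and 0.08 over named genes at or above the median signal. The signal of CNOT3KD MEFs exceeded that of control MEFs at 0, 6 and 12 h in 7 of the 8 genes at or above the median signal, against 38.7% of all genes at that level. Among all probe sets more than 1.5-fold apart at 0 h, 45.7% were higher in CNOT3KD MEFs, or 56.0% when arrays were scaled to ribosomal protein signals.

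**Figure D1:**
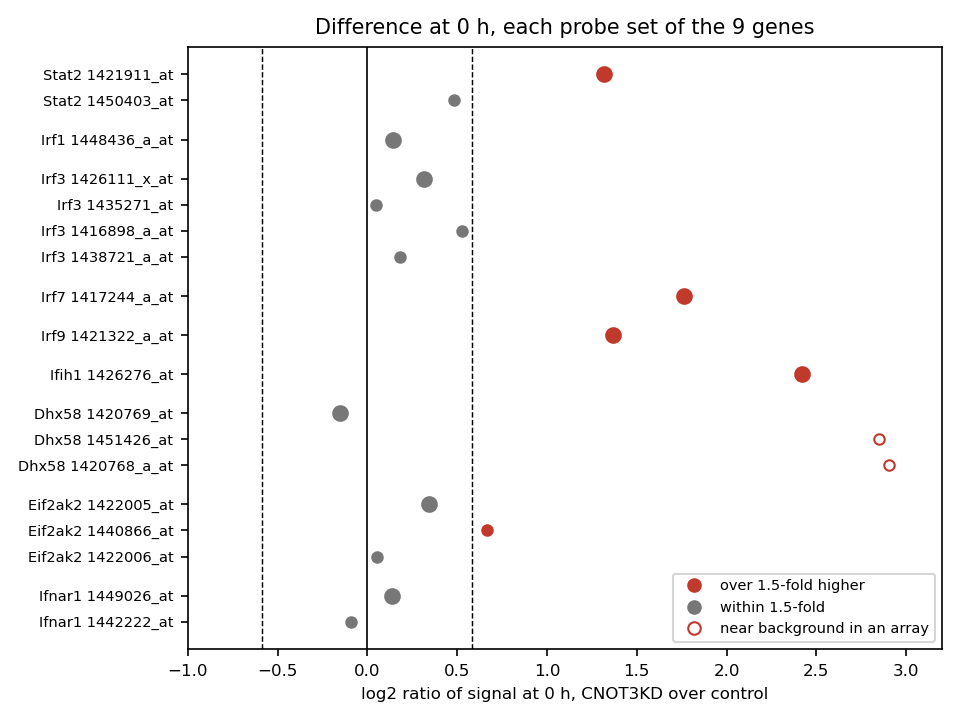
Log2 ratio of the signal in CNOT3KD to control MEFs at 0 h for each of the 18 probe sets, 1 array per culture, with the brightest probe set of a gene as the larger circle, dashed lines at 1.5-fold, and open circles for ratios with a signal near background. Ifih1, Irf7, Irf9, the brightest Stat2 probe set and the Eif2ak2 probe set 1440866_at lie right of the right dashed line as filled circles. The brightest Dhx58 and the dimmer Ifnar1 probe sets lie left of 0. The other 2 Dhx58 probe sets are open circles right of the right dashed line.

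Ifih1, which encodes the RNA helicase MDA5, had signals of 116.5, 124 and 72.2 at 0, 6 and 12 h in control MEFs. In CNOT3KD MEFs it had 624, 752 and 640.1. The signal in CNOT3KD MEFs was thus above that in control MEFs by 5.36-fold at 0 h, 6.06-fold at 6 h and 8.87-fold at 12 h. The difference was present before Act. D. Ifih1 kept 106% and 62.0% of its 0 h signal in control MEFs and 120.4% and 103% in CNOT3KD MEFs, a log2 stabilization of 0.45. Stabilization here compares the fractions left, CNOT3KD over control MEFs in log2, as a mean of 6 and 12 h.

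Dhx58 encodes LGP2, a helicase that modulates signalling by MDA5 and RIG-I, and its 3 probe sets disagreed. The brightest, 1420769_at, had 67.2, 33.5 and 33.3 in control MEFs and 60.5, 59.4 and 52.9 in CNOT3KD MEFs, which is 1.11-fold lower at 0 h. Probe set 1451426_at had 7.69, 4.24 and 3.23 in control MEFs, all near background, and 55.5, 133 and 94.6 in CNOT3KD MEFs. It was thus at least 2.80-fold higher in CNOT3KD MEFs at 0 h and apart from control MEFs at all times. The third, 1420768_a_at, was near background in both cultures at 0 h and gives no fold. The median over the 3 probe sets gave a log2 difference of 2.85 at 0 h, against −0.15 for the brightest, and rests on signals near background.

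Eif2ak2 encodes PKR, the kinase that is activated by double-stranded RNA and phosphorylates the translation factor eIF2 alpha. Its brightest probe set had 302, 386 and 361 in control MEFs and 383, 523 and 453 in CNOT3KD MEFs, 1.27-fold higher at 0 h. The others were 1.59-fold and 1.04-fold higher at 0 h. As deposited, no probe set of Eif2ak2 was below its 0 h signal at 6 or 12 h in either culture. The lowest value was 112% and the highest 175%. Such percentages depend on the scaling of the arrays. Log2 stabilization of the brightest probe set was 0.04, or 0.55 with ribosomal protein scaling and −0.43 with quantile normalization. Eif2ak2 was the gene with matches to both the ISRE core and the GAS.

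Ifnar1, which encodes a chain of the type I interferon receptor, had 701, 639 and 397 in control MEFs and 771, 765 and 736 in CNOT3KD MEFs. The cultures differed by 1.10-fold at 0 h and by 1.86-fold at 12 h. After 12 h control MEFs retained 56.6% and CNOT3KD MEFs 95.5%. A dimmer probe set, below the median signal, had 53.6, 78.9 and 101 in control MEFs and 50.3, 23.4 and 55.6 in CNOT3KD MEFs, which is the opposite order after Act. D.

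Stat2, which encodes a subunit of ISGF3, had 55.1, 76.0 and 16.5 in control MEFs at its brightest probe set, 1421911_at, the last of which was near background. In CNOT3KD MEFs it had 137, 194 and 213. It was 2.49-fold higher at 0 h. In control MEFs 138% was left after 6 h but at most 32.6% after 12 h, against 142% and 155% in CNOT3KD MEFs. The other probe set, 1450403_at, had 71.6, 15.4 and 55.7 in control MEFs and 100.001, 128 and 102 in CNOT3KD MEFs, 1.40-fold higher at 0 h. The control array with the low value was thus the one at 12 h for one probe set and the one at 6 h for the other. For each of these probe sets, CNOT3KD MEFs were above control MEFs at 0, 6 and 12 h.

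Irf9 encodes the IRF subunit of ISGF3 that carries much of its DNA recognition. It had 225, 102 and 87.6 in control MEFs and 581, 766 and 536 in CNOT3KD MEFs. The difference was 2.58-fold at 0 h, 7.48-fold at 6 h and 6.12-fold at 12 h. Control MEFs kept 45.5% and 38.9% of the 0 h signal, and CNOT3KD MEFs kept 132% and 92.4%. Irf9 was the single member that was both more than 1.5-fold higher at 0 h and stabilized at its brightest probe set by the rule given below.

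Irf7, a regulator of type I interferon genes that is itself strongly inducible by interferon, had 103, 111 and 122 in control MEFs. It had 351, 262 and 273 in CNOT3KD MEFs. The difference narrowed from 3.40-fold at 0 h to 2.37-fold at 6 h and 2.24-fold at 12 h. Irf7 kept 107% and 118% in the control and 74.7% and 77.7% in CNOT3KD MEFs, a log2 stabilization of −0.56, the lowest of the 9 genes. With arrays scaled to ribosomal protein signals it kept 80.3% and 69.6% in the control and 74.9% and 69.2% in CNOT3KD MEFs, a log2 stabilization of −0.05.

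Irf1, a factor induced by interferon and cytokines and known for a short-lived mRNA, had 635, 206 and 292 in control MEFs and 701, 224 and 201 in CNOT3KD MEFs. The cultures differed by 1.10-fold at 0 h and 1.09-fold at 6 h. In control MEFs 32.4% and 46.1% of Irf1 was left, and in CNOT3KD MEFs 32.0% and 28.6%. After Act. D its signal was thus low in both cultures, and at 12 h it was lower in CNOT3KD MEFs. Its log2 stabilization was −0.35, or 0.16 when arrays were scaled to ribosomal protein signals.

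Irf3 encodes the factor that is phosphorylated first after RNA is sensed. Its 4 probe sets were between 1.03-fold and 1.44-fold higher in CNOT3KD MEFs at 0 h but did not agree after Act. D. The brightest, 1426111_x_at, had 1111, 372 and 449 in control MEFs and 1383, 835 and 770.1 in CNOT3KD MEFs, and kept 33.5% and 40.4% against 60.4% and 55.7%. The suffix _x_at marks probe sets with probes that can match other transcripts, so this value is uncertain. Probe set 1416898_a_at had 230.0, 19.0 and 16.3 in control MEFs and 331, 205 and 140.4 in CNOT3KD MEFs. It kept 8.28% and at most 7.81% against 61.8% and 42.4%, a log2 stabilization of at least 2.67. In contrast, 1435271_at had 158, 189.8 and 305 in control MEFs and 164, 151 and 146 in CNOT3KD MEFs. The last, 1438721_a_at, had 80.6, 3.37 and 63.3 in control MEFs and 91.5, 48.5 and 25.9 in CNOT3KD MEFs, higher than control at 6 h and lower at 12 h.

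**Figure D2:**
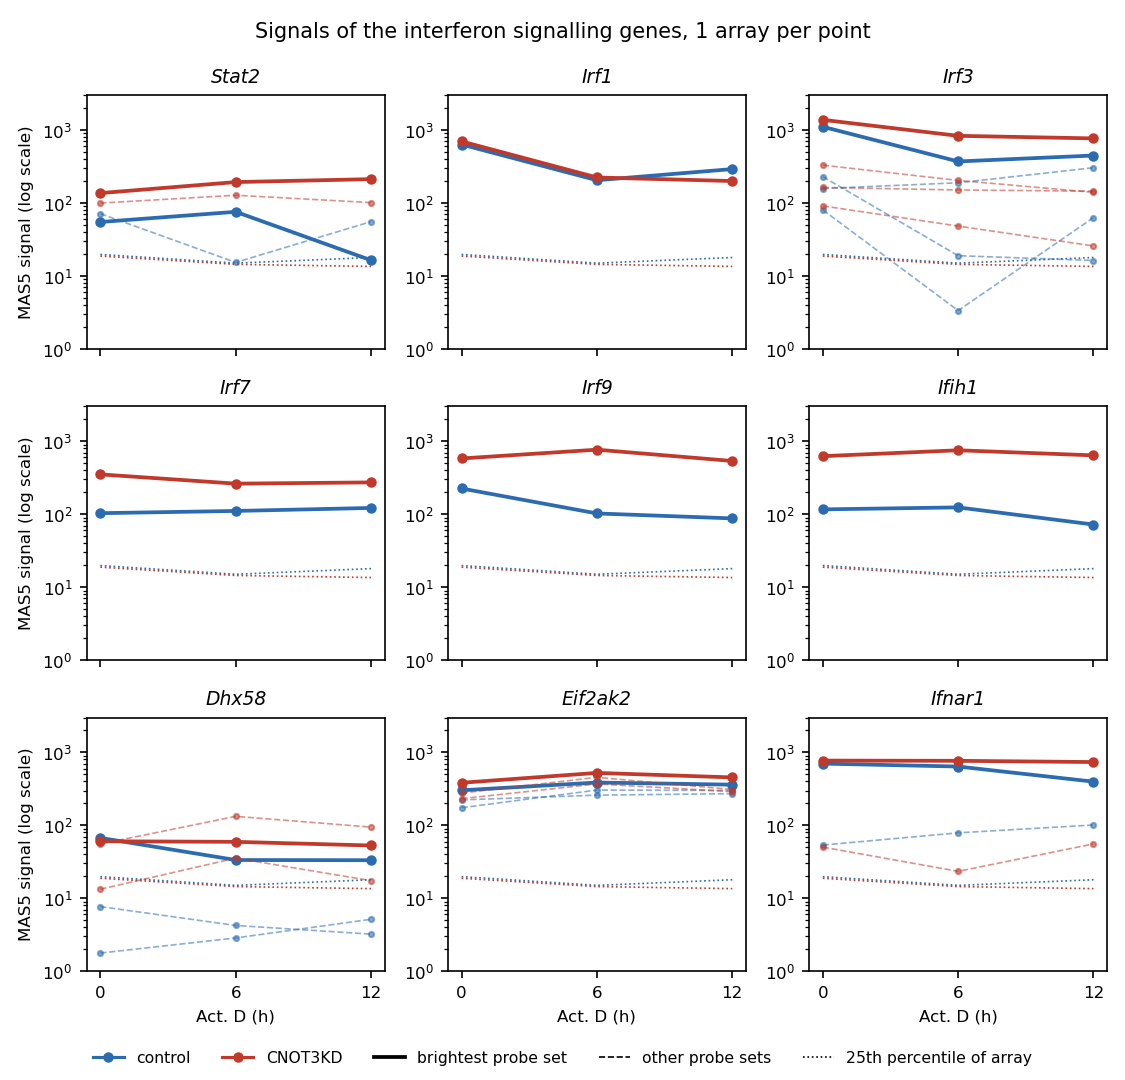
MAS5 signals (log axis) against hours with Act. D, blue for control and red for CNOT3KD MEFs, for the 9 genes, with 1 array per point, thick lines for the brightest probe set, thin dashed lines for the others and dotted lines for the 25th percentile of the arrays of each culture. The cultures are apart at every time for Ifih1, Irf7 and Irf9, nearly coincide at 0 h for Irf1 and Ifnar1, and the probe sets of Irf3 and Dhx58 run different courses.

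Stabilized genes were those that met 3 conditions. Their mean log2 signal over both 0 h arrays reached the median of all probe sets, the 6 h signal in CNOT3KD MEFs was 0.5 to 2.0 times the 0 h signal, and both at 6 h and at 12 h CNOT3KD MEFs retained a fraction 2.0 times or more that of the control. Of the 8 members at or above the median, 1 met this rule, Irf9, and 0 met it with the cultures exchanged. Among all 11062 genes at that level, 10.6% met the rule and 0.479% met it with the cultures exchanged, so the count of members was close to the background. By probe set, the dimmer Irf3 probe set 1416898_a_at met it as well. The median log2 stabilization was 0.45 over the 9 genes, 0.02 over all named genes and 0.13 over named genes at or above the median signal. Stat2 did not meet the rule since its signal left at 6 h was alike in the cultures at the brightest probe set. The 4 genes that were higher at 0 h differed from each other after Act. D, with a log2 stabilization of 1.39 for Irf9, at least 1.14 for Stat2, 0.45 for Ifih1 and −0.56 for Irf7. The difference at 0 h and the stabilization share the 0 h arrays.

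**Figure D3:**
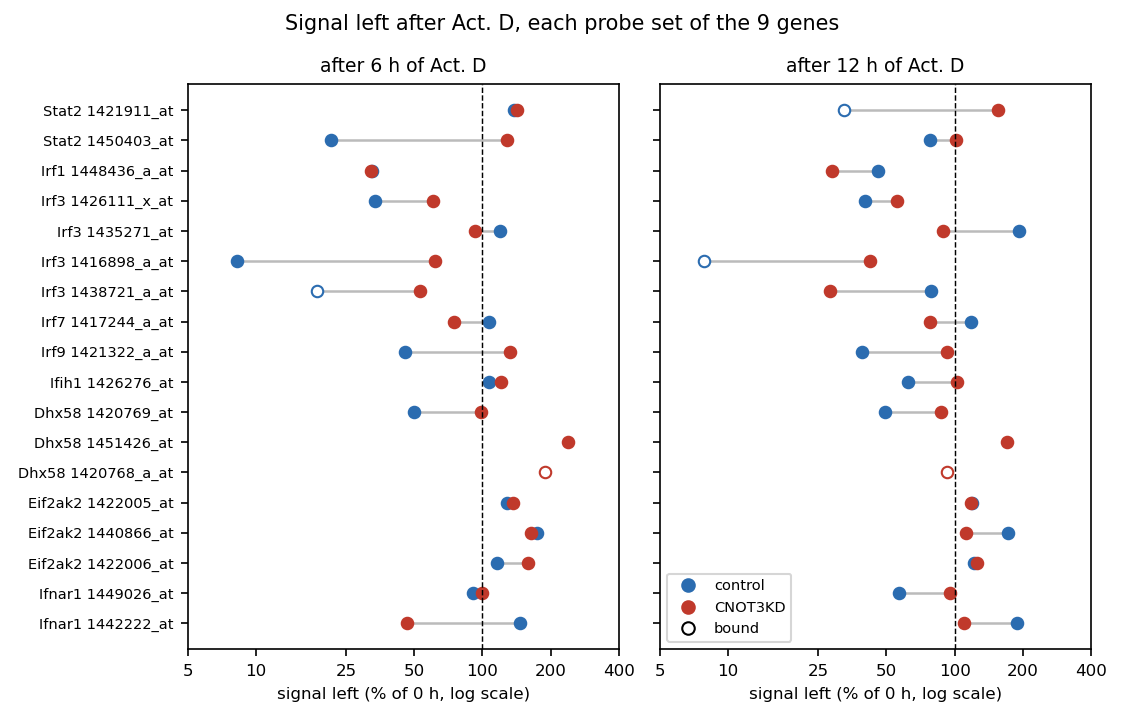
Share of the 0 h signal that remained, in percent with log axes, at 6 h in the left panel and 12 h in the right panel, for each of the 18 probe sets, with control MEFs in blue, CNOT3KD MEFs in red and bounds as open circles. Irf9 and the Irf3 probe set 1416898_a_at have the red point far right of the blue one at both times, and values of Dhx58 that were near background at both times are left out.

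Of the 76 other genes listed for the pathway, 63 were measured. Of these 63, 14 were more than 1.5-fold higher and 5 lower in CNOT3KD MEFs at 0 h, against 19.5% and 15.7% of all named genes. These counts include dim genes, and 5 of the 63 were near background in both 0 h arrays. At or above the median signal were 48 of the 63. At that level 6 were more than 1.5-fold higher in CNOT3KD MEFs, 3 were lower and 6 were stabilized by the rule above, and the share of higher and of stabilized genes was close to that of all genes. The higher genes were Tlr3, Rnf135 and Prkra among sensors and their adaptors, the kinase gene Ikbke, and the feedback inhibitors Usp18 and Trim30a, with Prkra named after its values were seen. Rnf135, which encodes a ubiquitin ligase for RIG-I, had 168 in control and 394 in CNOT3KD MEFs at 0 h. Ikbke, a kinase of the IRFs, had 101 and 278. Usp18 had 43.7 and 633 and was also stabilized, with control signals near background at 6 and 12 h. The lower genes were Ifngr2, a chain of the interferon gamma receptor, with 591 and 383, Socs3, a feedback inhibitor, with 539 and 307, and the ligand gene Ifnz with 249 and 164.

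Ddx58 encodes RIG-I, the other helicase that starts the pathway. It had 602, 369 and 237 in control MEFs and 893, 1126 and 1151 in CNOT3KD MEFs. It kept 61.2% and 39.4% against 126% and 129% and was stabilized, and its difference at 0 h was 1.48-fold. Trim25, a ubiquitin ligase that acts on RIG-I, retained 21.3% and 9.57% in control against 91.9% and 64.1% in CNOT3KD MEFs. Tank, an adaptor of the IRF kinases, kept 33.0% and 19.6% against 89.6% and 83.5%, although its signal was 1.38-fold lower at 0 h. Ptpn2, a phosphatase that acts on JAK and STAT proteins, kept 15.4% and 8.67% against 67.4% and 63.1%.

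Among the other STAT genes, 0 of 4 at or above the median signal differed by more than 1.5-fold at 0 h and 0 were stabilized. Stat6 had 1019 and 1328 at 0 h, Stat5a had 223 and 252, and both kept over 100% at 12 h in CNOT3KD MEFs, with 107% each, against 37.1% and 38.0% in control MEFs. In the list of other IRF genes and IRF2-binding proteins, 5 were at or above the median, of which Irf2 and Irf5 are IRF genes, and 0 of the 5 were more than 1.5-fold apart at 0 h. Irf2 kept 19.5% and 37.7% against 73.4% and 34.0%. Of the other receptor chains, Ifnar2 had 1169 and 1732 at 0 h, 1.48-fold higher, and Ifngr1 kept 29.8% at 12 h in control MEFs against 99.1%. Among the ligand genes, Ifnb1 had 37.4 in control and 29.4 in CNOT3KD MEFs at 0 h. Only 1 of 8 measured ligand genes, Ifnz, was at or above the median signal, and near-background ligand genes give no usable fold. For the kinases of eIF2 alpha other than PKR, Eif2ak3 (PERK) kept 8.27% at 12 h against 46.6% and missed the lower limit on the ratio in CNOT3KD MEFs. At 12 h Eif2ak1 kept 56.3% in control MEFs against 115%, and Eif2ak4 kept 43.8% against 83.5%. Eif2ak1, Eif2ak3 and Eif2ak4 were all within 1.5-fold at 0 h.

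The members are set beside 3 groups of antiviral genes that the pathway is known to switch on. At or above the median signal, 8 of 11 IFIT and OAS effectors, 6 of 6 interferon-inducible GTPases and 6 of 9 genes of MHC class I and the immunoproteasome were more than 1.5-fold higher at 0 h, beside 4 of 8 members. Stabilized were 1, 3 and 0 of these, beside 1 of 8 members. Over all measured genes of the groups the median log2 difference at 0 h was 0.71, 1.83 and 1.003, against 0.34 for the members. Whether these groups differ from the members was not tested, with 1 array per condition. Among them Irgm2, which encodes a GTPase, had 55.6 in control and 387 in CNOT3KD MEFs at 0 h, and Psmb8, an immunoproteasome subunit gene, had 44.3 and 258. By promoter, the ISRE core was found in 3 of 8 members, 7 of 13 effectors, 6 of 6 GTPases and 2 of 9 MHC class I and immunoproteasome genes with a promoter in the table, against 3.99% of all 27025 genes there. It was also found in 5 of 8 interferon ligand genes and in 5 of 34 cytosolic ribosomal protein genes. Within the members it was found in 2 of the 4 genes that were higher at 0 h, Stat2 and Ifih1, and in Eif2ak2, which was within 1.5-fold.

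**Figure D4:**
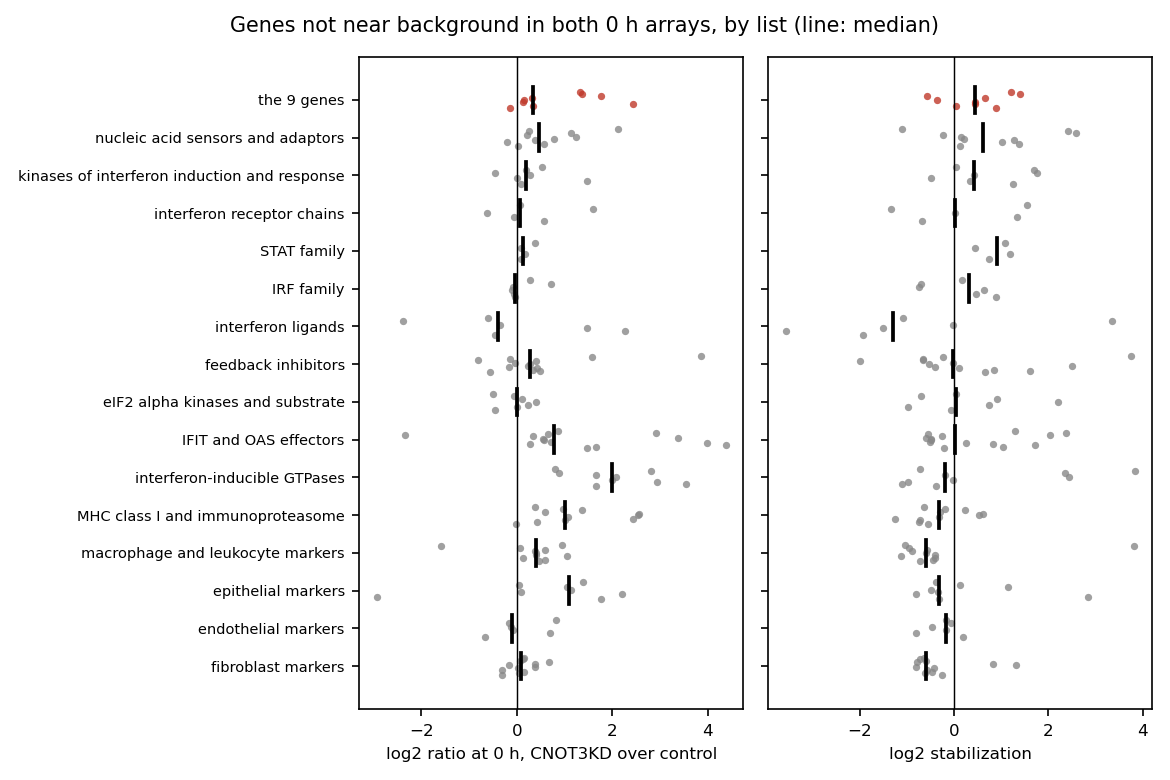
Log2 difference at 0 h, CNOT3KD minus control MEFs (left), and log2 stabilization (right) for the 9 genes (red) and the other lists (grey), 1 point per gene that was not near background in both 0 h arrays, with a line at the median of each list. The 9 genes spread from −0.15 to 2.42 at 0 h, and the GTPases have the median farthest to the right.

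The course of each gene over the arrays was compared with 10914 genes outside the lists, as the Euclidean distance between log2 signals relative to control at 0 h over the 5 other arrays. Parp9, which encodes an interferon-inducible member of the PARP family, was nearest to Ifih1 at a distance of 0.21, with 166, 165 and 112 in control MEFs and 887, 1040.0 and 831 in CNOT3KD MEFs. The genes nearest to the others were Rad50 for Ifnar1 at 0.09, Sqor for Eif2ak2 at 0.12, S100pbp for Irf3 at 0.14, and Rgs3 for Irf1 and Dhx57 for Dhx58, both at 0.22. Irf7, Stat2 and Irf9 had more distant nearest genes, Tmc4 at 0.40, Palmd at 0.52 and Tstd3 at 0.55. Among the 9 genes themselves the closest pair was Irf3 and Dhx58 at 0.85, and Stat2 and Irf9 were 1.79 apart. These distances are descriptions over arrays that share the control at 0 h. They use only the brightest probe set of each gene, and other probe sets of Irf3, Dhx58, Stat2 and Ifnar1 ran different courses.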

How the data were processed

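As deposited, the files hold 1 intensity for each probe set, a linear MAS5 signal that the authors computed from GeneChip Mouse Genome arrays hybridized with biotin-labelled cRNA. Neither the MAS5 version nor its scaling target is named in the labels or the methods. The lowest deposited signal was 1, and no further scaling was applied. Probe sets were named through the annotation of the platform, which pairs exactly 1 symbol with 34945 probe sets. All 9 gene identifiers were found in the RefSeq list for GRCm38.p6. Where a gene had several probe sets, the brightest (mean of log2 over the 6 arrays) stood for it, with the others given beside it. Ratios, counts and distances were computed with Python 3.11.15, numpy 2.4.6 and pandas 2.3.3, and the calls were tested on simulated data.

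The members and the gene lists were chosen with earlier results of these data known. Named genes are the members with all probe sets, Cnot3, up to 3 genes of each list with the largest difference at 0 h and up to 3 with the largest stabilization, and the nearest 2 genes of each member, of which the nearest is given. Others are named as members of a small count or after their values were seen. With 1 array per condition there is no test, and precision is limited by the number of arrays. Alternatives were 3 other scalings, a pseudocount of 16, the median over all probe sets of a gene, single times and other limits of the rules.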

Additional observations from a re-analysis of the deposited data

Results flagged for a closer look

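At 3 probe sets the signal moved in opposite directions in the cultures after Act. D at both times, with 1 array per point, and the difference between the cultures was not tested. Irf7 was above its 0 h signal in control MEFs and below it in CNOT3KD MEFs, with a log2 stabilization of −0.56. The Irf3 probe set 1435271_at did the same, at −0.75, with 120% and 193% left in control MEFs against 92.4% and 88.9%. For neither did the directions stay opposite at both times under quantile, median or ribosomal protein scaling. The dimmer Stat2 probe set 1450403_at was below its 0 h signal in control MEFs and above it in CNOT3KD MEFs, at 1.48. This held under quantile and median scaling, but with ribosomal protein scaling CNOT3KD MEFs kept 90.5% at 12 h. The value of 1.48 is the mean of 2.58 at 6 h and 0.38 at 12 h. At 6 h the control signal was 15.4, just above the near-background level of 15.0 in that array.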

How the results depend on the processing

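The 4 genes more than 1.5-fold higher at 0 h were Stat2, Irf7, Irf9 and Ifih1 under quantile, ribosomal protein and median scaling, a pseudocount of 16 and a limit of 2-fold, and no member was lower under any of these. With the median over all probe sets Dhx58 joined them, for 5. Irf9 was stabilized under all alternatives. The number stabilized was 2 with ribosomal protein scaling, where Irf3 was added, and 2 with the median over all probe sets, where Stat2 was added. Ribosomal protein scaling moved the median of all probe sets from −0.03 to 0.10 for the log2 difference at 0 h and from −0.05 to 0.46 for stabilization. Among the 63 measured other genes of the pathway, between 10 and 18 were higher at 0 h in place of 14. In place of 5, 3 were lower at 0 h with ribosomal protein or median scaling and 7 with quantile normalization. In place of 6, 4 were stabilized with quantile normalization and 15 with ribosomal protein scaling. The share of all genes stabilized with ribosomal protein scaling is not given here. Of the values of single members under the alternatives, 104 moved by less than 1.5-fold and 4 by more. These were Dhx58 at 0 h (2.85) and Ifnar1 stabilization (−0.39) with the median over all probe sets, and Stat2 stabilization at 6 h (0.04) or 12 h alone (2.38, with a control signal near background taken as measured). The sign also turned for values within 1.5-fold, as for Dhx58 and Ifnar1 here, for Irf1 stabilization with ribosomal protein scaling (0.16 in place of −0.35) and for Eif2ak2 stabilization, 0.04, which was −0.43 with quantile normalization. No paired analysis was possible because each condition had 1 array and the labels give no replicate numbers. A fit with time as a block, which would take the times as replicates, was not run.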
